A study of Mus musculus with 4 samples.

Results

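Type I interferon response genes are genes that cells switch on after type I interferon binds its receptor. Here they are 38 genes chosen by symbol, and their members are the array probes filed under those symbols. Probes were found for 36 of the 38, among 24130 named genes on the array, and these 36 had 54 probes. No probe was filed as Ifi27 or Ifi205. Of the 36, 34 entered the test, which required a probe to lie well above background in one channel on at least 3 of the 4 arrays. Mx1 lay well above background on 0 arrays in both channels. Trim21 did so on 2 arrays in the Cy5 channel and on 0 in the Cy3 channel, and both were left out of the test.

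RNA from sorted cells of 2-week-old mice was hybridised to 4 two-colour arrays, on which the red dye Cy5 and the green dye Cy3 mark the RNAs that are compared. The Cy5 RNA is labelled odontoblast (the cell that lays down dentin), from dental pulp of C57BL/6 mice. The Cy3 RNA is labelled calvarial osteoblast (a bone-forming cell of the skull vault), with no strain given for that channel. In both, cells were sorted after enzymatic digestion for green fluorescence from an EGFP transgene driven by a 2.3 kb fragment of the type I collagen promoter, and the cells on an array were donor matched. The promoter fragment is active in both cell types, so the sort itself does not separate them. No treatment or infection is named for any group, and the number of mice behind an RNA is not given, so the spread between the 4 arrays, which may be partly technical, is all that the p-values measure. Dyes were not swapped, and dye and cell type cannot be told apart.

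Most markers of both cell types ran against the labels. The marker lists were chosen with earlier results of these data known, so their counts of calls are no independent test of the labels. All 7 measured odontoblast markers had negative log2 ratios of Cy5 over Cy3 on all 4 arrays, with a median of -3.02. Of them 4 passed the test (Wnt10a, Car2, Bmp7 and Sall1), against 0.65% of all features called higher in Cy3. Dspp, Dmp1 and Nes did not pass (limma adjusted p = 0.0632, 0.114 and 0.0615). Of 10 osteoblast markers, 4 were called higher in Cy5, against 1.02% of features, and the list's median was 2.23. Ratios were positive on all 4 arrays for 7 of the 10. Sp7, Bglap and Alpl, named after their values were seen, took either sign over arrays, with means of 0.0013, 1.34 and 0.05. Channels are therefore called by dye and label throughout. An exchange of the labels in the record would change which cell type each channel stands for, and no printed ratio of Cy5 over Cy3. Between 67.8% and 85.2% of probes lay well above background per array and channel, and ratios of different arrays correlated at r = 0.30 to 0.49 over features, which are not independent replicates.

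Type I interferons, the alpha and beta interferons, bind a receptor made of IFNAR1 and IFNAR2. The kinases JAK1 and TYK2 then activate a complex that holds STAT2 and IRF9 and binds the interferon-stimulated response element in target promoters. The target genes encode sensors of foreign RNA and DNA, enzymes that degrade RNA or block translation, proteins that hold viruses back at membranes, and the ubiquitin-like modifier ISG15.

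The letters of this element stand in the promoters of many members. Its core, GAAA followed by 2 bases of any kind and a second GAAA, was searched on both strands from 250 bases before to 50 bases after each transcription start, in RefSeq windows of build GRCm38.p6. It occurred in 14 of the 26 members that have a window (53.8%), and in 3.99% of 27025 genes. The share was 7 of 12 among members called higher in Cy5 in the test below and 5 of 12 among tested members that were not called, while Ifi205 and Trim21, which were not tested, account for the other 2. A match describes the letters and shows no binding, and overlapping matches were counted separately. The longer form, with a C after the second GAAA, occurred in 9 of the 26 (34.6%), against 0.944% of genes. The 160 bases before the start are printed for the 5 called members with the largest ratios among those that hold the letters upstream of the start, to show where they lie, with every match in capitals (on the reverse strand the capitals begin with T).

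Ifit3 (chr19:34583369-34583528, plus strand): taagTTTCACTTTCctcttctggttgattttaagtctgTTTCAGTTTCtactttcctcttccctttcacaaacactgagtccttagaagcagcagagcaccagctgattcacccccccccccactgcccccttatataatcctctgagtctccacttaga
Ifit1 (chr19:34640729-34640888, plus strand): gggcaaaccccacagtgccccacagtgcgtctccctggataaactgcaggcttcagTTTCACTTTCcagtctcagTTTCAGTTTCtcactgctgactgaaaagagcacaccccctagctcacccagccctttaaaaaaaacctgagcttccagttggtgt
Isg15 (chr4:156200819-156200978, minus strand): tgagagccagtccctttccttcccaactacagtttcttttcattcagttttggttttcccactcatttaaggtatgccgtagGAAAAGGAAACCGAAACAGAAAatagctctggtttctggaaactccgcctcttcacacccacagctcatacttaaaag
Oas1a (chr5:120907526-120907685, minus strand): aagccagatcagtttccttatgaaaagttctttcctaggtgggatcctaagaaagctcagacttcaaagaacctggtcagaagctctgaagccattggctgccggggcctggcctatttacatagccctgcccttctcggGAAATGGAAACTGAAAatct
Ifi203 (chr1:173942493-173942652, minus strand): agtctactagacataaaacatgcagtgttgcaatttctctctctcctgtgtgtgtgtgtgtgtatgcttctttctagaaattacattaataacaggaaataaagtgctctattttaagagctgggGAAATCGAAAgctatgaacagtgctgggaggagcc

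Ifit3 and Ifit1 each hold 2 separate matches, in reverse orientation, with first bases at -156 and -122 (Ifit3) and -104 and -85 (Ifit1), counted from the start. Isg15 holds 3 overlapping matches that begin at -78, -72 and -66. Oas1a holds 2 overlapping matches close to the start, at -20 and -14, and Ifi203 has 1 match, at -35. Ifi44, the member with the largest ratio, holds no match in its window.

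Many interferon response genes gave more signal in the Cy5 channel, labelled odontoblast, and none of those measured was called higher in Cy3. The members were chosen with earlier results of these data known, so the shares of features beside their counts are a description and no test. Of the 34 measured members, 15 were called higher in Cy5 at an adjusted p under 0.05, against 1.02% of all 37365 features, and 0 were called higher in Cy3, against 0.65% of features. At an unadjusted p under 0.05 in limma, 26 were higher in Cy5 and 0 in Cy3. The share of all features at that unadjusted threshold is not given, so such counts, here and below, have no background beside them. The median log2 ratio of the members was 1.66 (array medians 1.70, 2.22, 2.02 and 1.51), and that of all features was -0.0031. The ratio was above 0 on all 4 arrays for 26 members, against 15.5% of features, and these were the 15 called members and 11 others. The lowest Cy5 level exceeded the highest Cy3 level for 20 members, against 7.5% of features. A log2 ratio of 1 or more was reached by 24 members, against 5.67% of features, and the mean ratio was above 0 for 31 members, against 49.8%. In bulk RNA such as this, fewer cells of a type and less RNA per cell cannot be told apart. Of 18 macrophage and leukocyte markers, 5 were also called higher in Cy5, and their part in the members' ratios was not tested.

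The count of calls fell when any 1 array was left out, among the members and over all features. Without array 1, 1 member was called (Ifit1), without array 2 or without array 4 it was 0, and without array 3 it was 9. Over all features, limma then called 54, 0, 35 and 296 features (without array 1, 2, 4 and 3 in turn), against 623 on all 4 arrays. The members with an unadjusted p under 0.05 in limma numbered 25 without array 1, 2 or 3 and 23 without array 4, and the median ratio lay between 1.54 and 1.84. None of the 15 called members changed its sign in these fits.

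**Figure D1:**
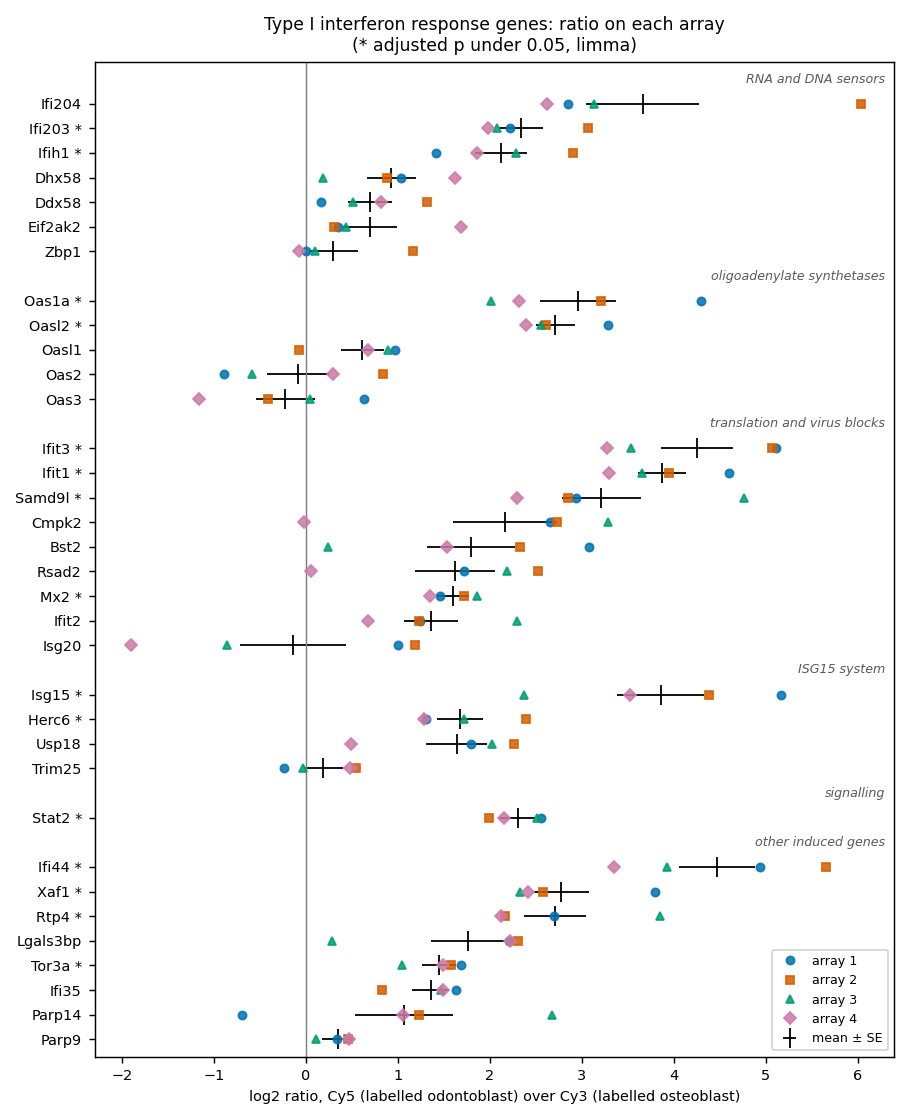
Log2 ratio of Cy5 (labelled odontoblast) over Cy3 (labelled osteoblast) of the 34 measured members on each of the 4 arrays, grouped by role, with the mean and its SE and an asterisk for members with an adjusted p under 0.05. All 15 called members lie right of 0 on all 4 arrays, and Ifi44 has the largest mean at 4.47.

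Of the complex that carries the interferon signal, the member gene Stat2 was called. Its normalised intensity was 536, 803, 553 and 945 in the Cy5 channel of arrays 1 to 4, against 90.9, 203, 97.1 and 213 in the Cy3 channel, where it lay well above background on 2 arrays. The groups did not overlap, and the log2 ratio was 2.30 ± 0.19 (SE, n = 4, limma adjusted p = 0.0132).

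Among the sensors of foreign nucleic acid, 2 of 7 members were called, and the median ratio of the 7 was 0.93. Ifih1, which encodes MDA5, a helicase that detects long double-stranded RNA, measured 891, 2232, 1869 and 743 in Cy5 and 334, 298, 384 and 204 in Cy3. It was 4.34-fold higher in Cy5 (log2 ratio 2.12 ± 0.28 SE, adjusted p = 0.0375), with its largest ratio on array 2. Ifi203, of the PYHIN family of DNA-binding proteins, measured 1776, 3518, 3638 and 2215 in Cy5 and 382, 419, 862 and 561 in Cy3. Its levels did not overlap either, and the log2 ratio was 2.34 ± 0.24 (SE, adjusted p = 0.0216). The DNA sensor Ifi204, of the same family, had ratios of 2.85, 6.03, 3.14 and 2.62 on arrays 1 to 4. All 4 were positive, but array 2 stood far from the rest and the adjusted p of 0.0623 missed the threshold. Genes of this family have close copies next to each other on chromosome 1, and their probes may share signal.

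The remaining sensors had smaller ratios. Ddx58, which encodes RIG-I, the detector of uncapped RNA ends, had a log2 ratio of 0.70 ± 0.24 (SE, adjusted p = 0.215), and Dhx58, which encodes their regulator LGP2, had 0.93 ± 0.27 (adjusted p = 0.17). Eif2ak2 encodes PKR, the kinase that halts translation when it meets double-stranded RNA. Its level was 5113, 7171, 6286 and 8514 in Cy5, against 4031, 5795, 4666 and 2639 in Cy3, and the ratio of 0.69 (adjusted p = 0.284) drew mainly on array 4, at 1.69. Zbp1, a sensor of left-handed nucleic acid, had ratios of 0.00, 1.17, 0.09 and -0.08 on the tested probe, so that array 2 alone stood clear of 0 there. The other kept Zbp1 probe, with a lower intensity, had ratios of -0.02, 3.06, 0.32 and 2.32 on arrays 1 to 4.

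The oligoadenylate synthetases, which make the short adenylate chains that activate RNase L, and their relatives divided. Oas1a measured 4076, 3109, 2844 and 2856 in Cy5, against 208, 336, 703 and 575 in Cy3, and was 7.77-fold higher in Cy5 (log2 ratio 2.96 ± 0.41 SE, adjusted p = 0.041). Its Cy5 levels lay close together, while its Cy3 levels on arrays 3 and 4 were above those on arrays 1 and 2. Oasl2 measured 1209.5, 709, 1221 and 804 in Cy5, against 125, 116, 207 and 153 in Cy3, well above background on 3 arrays there (log2 ratio 2.71 ± 0.21 SE, adjusted p = 0.0126). Oasl1, known in mouse to hold back translation of Irf7, had ratios of 0.97, -0.08, 0.89 and 0.68 and was not called (adjusted p = 0.251). Oas2 had ratios of -0.89, 0.84, -0.58 and 0.29, and Oas3 had 0.63, -0.41, 0.04 and -1.16. Both took either sign, with 2 arrays above 0 and 2 below, and Oas3 was dim in both channels, well above background on 3 arrays in each. All 5 genes lie on chromosome 5, and the 3 Oas probes fall within one stretch between positions 121180343 and 121348397 (mm9).

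Differences between these relatives were taken within each array. The log2 ratio of Oas1a exceeded that of Oas2 by 3.04 ± 1.45 (SD, n = 4) and that of Oas3 by 3.18 ± 0.81, and the ratio of Oasl2 exceeded that of Oasl1 by 2.10 ± 0.49. Each difference was positive on 4 of 4 arrays. An exact two-sided sign-flip permutation test gave p = 0.125 for each, the smallest that 4 arrays allow, and 0.125 after adjustment over the 8 pairs compared. In all 8 pairs, here and below, the gene named first was called and the second was not. Positive differences therefore follow from the choice of pairs, and these p-values give no further support.

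The IFIT genes encode proteins that bind foreign RNA and block its translation, and they lie side by side on chromosome 19. Ifit3 (probe at chr19:34663105-34663164, mm9) measured 5493, 10737, 5451 and 5103 in Cy5, against 158, 319.5, 469 and 526 in Cy3. It was 19-fold higher in Cy5 (log2 ratio 4.25 ± 0.39 SE, adjusted p = 0.018). Ifit1 (probe at chr19:34723796-34723855, mm9) measured 8931, 13398, 12097 and 5537 in Cy5, against 369, 870.0, 958 and 564 in Cy3. Its log2 ratio of 3.87 ± 0.26 had the smallest adjusted p of the members (0.00827), and it was the single member still called without array 1. Both had their smallest ratios on array 4, and neither overlapped between channels. Ifit2 measured 1144, 2703, 2899 and 1645 in Cy5, against 485, 1153, 589 and 1031 in Cy3, levels that overlapped, and its ratio of 1.36 ± 0.30 was not called (adjusted p = 0.109). Within arrays, the log2 ratio of Ifit1 exceeded that of Ifit2 by 2.51 ± 0.84 and that of Ifit3 exceeded it by 2.89 ± 1.25 (SD, n = 4), positive on 4 of 4 arrays (exact permutation p = 0.125 each, the smallest possible).

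Of the other genes that act on viral replication or release, Samd9l and Mx2 were called. Samd9l, an antiviral and growth-restraining protein, measured 2837, 3191, 6617 and 2997 in Cy5 and 369, 443, 244 and 609 in Cy3 (log2 ratio 3.21 ± 0.43 SE, adjusted p = 0.0372). Array 3 held both its highest Cy5 and its lowest Cy3 level. Mx2, a dynamin-like GTPase, measured 533, 527, 827 and 464 in Cy5 and 195, 160.5, 227 and 183 in Cy3, so that its groups did not overlap although the size was modest (3.02-fold, log2 ratio 1.59 ± 0.18 SE, adjusted p = 0.0271).

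Rsad2, which encodes viperin, a radical enzyme that makes a chain-terminating nucleotide, and Cmpk2, a mitochondrial nucleotide kinase, are neighbours on chromosome 12 and had a similar profile over arrays. Rsad2 had ratios of 1.72, 2.53, 2.19 and 0.05 on arrays 1 to 4, and Cmpk2 had 2.66, 2.73, 3.28 and -0.02. Both were near 0 on array 4 and at 1.72 or more on the other 3, and neither passed (adjusted p = 0.152 for Rsad2 and 0.148 for Cmpk2). The likeness holds for the tested Cmpk2 probe only, since the other kept Cmpk2 probe, with a lower intensity, had ratios of 0.87, 2.56, 2.03 and 0.88. Their Cy5 levels on array 4 were 181 for Rsad2 and 190.5 for Cmpk2, the lowest of their 4 Cy5 levels, whereas the Cy3 levels of Rsad2 stayed between 164 and 223 and those of Cmpk2, well above background on 2 arrays, between 109 and 193.

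Bst2 encodes tetherin, which holds budding virus at the cell surface. It measured 48781, 43121, 30011 and 31271 in Cy5, against 5794, 8591, 25352 and 10778 in Cy3. Array 3 was the exception with nearly equal levels, and the ratio of 1.80 ± 0.47 (SE) was not called (adjusted p = 0.149). Isg20, a nuclease that degrades single-stranded RNA, measured 13522, 21377, 14473 and 5455 in Cy5 and 6773, 9386, 26272 and 20378 in Cy3. Its ratio was positive on arrays 1 and 2 and negative on arrays 3 and 4, with a mean of -0.14 ± 0.57 (adjusted p = 0.913).

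In the ISG15 system, the modifier itself was among the 4 members with the largest ratios. Isg15 measured 50802, 54505, 38169 and 38249 in Cy5, against 1417, 2619, 7391 and 3329.9 in Cy3. It was 14.5-fold higher in Cy5 (log2 ratio 3.86 ± 0.47 SE, adjusted p = 0.0316), and the highest Cy3 level, on array 3, was still far below the lowest Cy5 level. Within arrays the ratio of Isg15 exceeded that of Isg20 by 4.003 ± 1.05 (SD, n = 4, positive on 4 of 4 arrays, exact permutation p = 0.125). Herc6, which attaches ISG15 to proteins in mouse, measured 446, 1899.6, 534 and 869 in Cy5 and 180.0, 361, 162 and 356 in Cy3. Its call was the closest to the threshold among the called members (log2 ratio 1.68 ± 0.25 SE, adjusted p = 0.0472) and held in 2 of the 8 other settings that kept all 4 arrays and measured it. Usp18, which removes ISG15 and dampens the receptor, measured 397, 939, 624 and 233 in Cy5 and 115, 196, 154 and 166 in Cy3. Its levels did not overlap, array 4 had the smallest ratio (0.49), and the mean of 1.64 ± 0.33 missed the threshold (adjusted p = 0.0935).

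Trim25, a ubiquitin ligase that activates RIG-I, was measured by probes that disagreed. The probe used in the test was the brighter one, with 161770, 195830, 162540 and 225590 in Cy5 and 191120, 134300, 166700 and 162280 in Cy3, and its ratio was 0.19 (adjusted p = 0.671). It carries a 30-base run of alternating G and T on chromosome 11, found at this length in 25 of 55681 probes, which is printed to show what this probe can hybridise to: gtgtgtgtgtgtgtgtgtgtgtgtgtgtgt. The other Trim25 probe, without such a run, had a mean ratio of -0.62. No level of Trim25 RNA is read from the brighter probe here, although its ratio enters the counts and the median of the measured members.

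The largest ratio of all members was that of Ifi44, an interferon-induced protein of little-known function. Ifi44 (probe at chr3:151394035-151394094, mm9) measured 10625, 15237, 7812 and 4192 in Cy5, against 346, 302, 514 and 412 in Cy3, and was 22.1-fold higher in Cy5 (log2 ratio 4.47 ± 0.41 SE, adjusted p = 0.018). Its lowest Cy5 level, on array 4, was far above its highest Cy3 level, on array 3. Rtp4, a chaperone that carries receptors to the cell surface, measured 8894, 9083, 9907 and 5265 in Cy5 and 1375, 2019, 685 and 1211 in Cy3 (log2 ratio 2.71 ± 0.34 SE, adjusted p = 0.0325). Xaf1, a partner of the apoptosis inhibitor XIAP, measured 13333, 14086, 10405 and 9978 in Cy5 and 958, 2364, 2079.8 and 1878 in Cy3 (log2 ratio 2.78 ± 0.30 SE, adjusted p = 0.0236). In both genes a low Cy3 level on 1 array (array 3 for Rtp4, array 1 for Xaf1) went with the highest ratio.

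Tor3a, an interferon-induced ATPase of the torsin family, measured 7446, 10079, 6345 and 4699.5 in Cy5 and 2321, 3376, 3078 and 1673 in Cy3. It had the smallest ratio among called members (1.45 ± 0.19 SE, adjusted p = 0.0362), and its groups did not overlap. Ifi35 lay just outside the threshold. It measured 22161, 22573, 20499 and 16525 in Cy5 and 7155, 12729, 7407 and 5875 in Cy3, also without overlap, with a ratio of 1.35 ± 0.21 and an adjusted p of 0.0504. Lgals3bp, a secreted glycoprotein that binds galectins, measured 21886, 32115, 18702 and 28559 in Cy5 and 4735, 6470.5, 15321 and 6121 in Cy3. As for Bst2, array 3 was the exception (0.29, against 2.21 or more on the others), and the mean of 1.76 ± 0.40 was not called (adjusted p = 0.116). The ADP-ribosyltransferases Parp14 and Parp9 were not called: Parp14, well above background in Cy3 on 2 arrays, had ratios of -0.70, 1.23, 2.67 and 1.06, and Parp9 a mean of 0.34 ± 0.17.

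**Figure D2:**
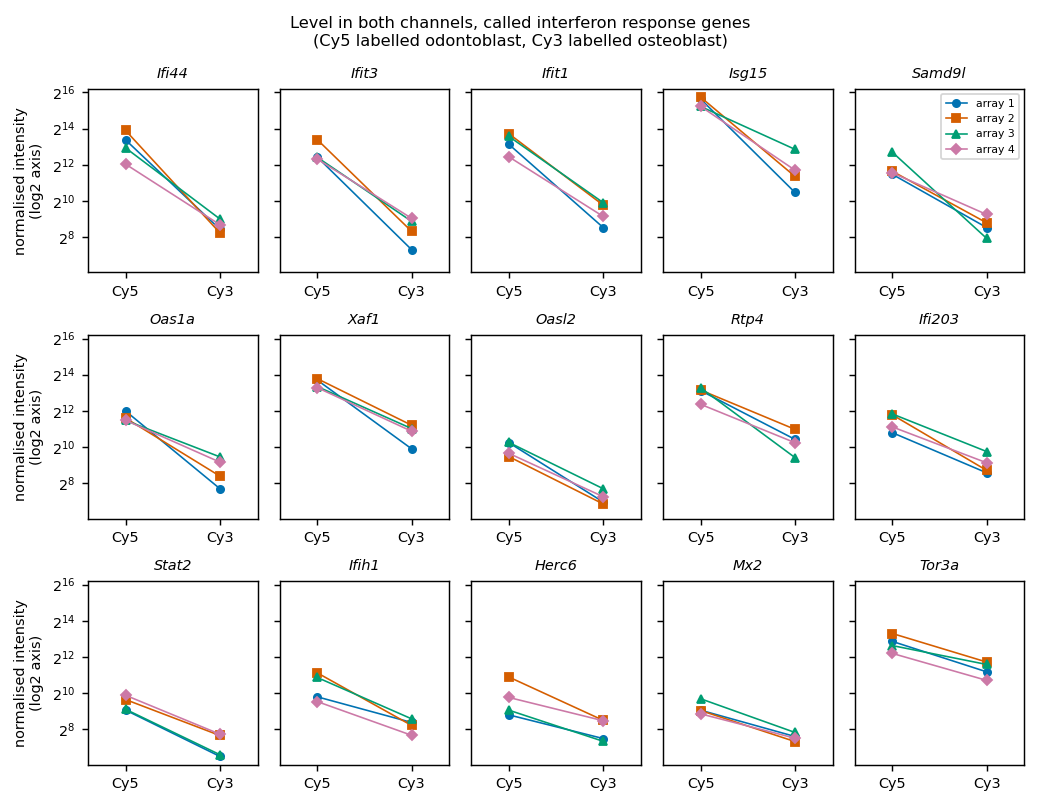
Normalised intensity (log2 axis) of the 15 called members in the Cy5 channel (left, labelled odontoblast) and the Cy3 channel (right, labelled osteoblast), with 1 line per array. The Cy5 point is higher on all 4 arrays in every panel, and the Cy3 points of Isg15, Ifit3 and Oas1a are spread more widely than their Cy5 points.

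Array 4 gave the lowest ratio for 17 of the 34 measured members, array 3 for 8, array 1 for 5 and array 2 for 4. The highest ratio fell on array 2 for 13 members, on array 1 for 12, on array 3 for 6 and on array 4 for 3. Ratios were above 0 for 31, 32, 31 and 30 members on arrays 1 to 4. Array 4 also had the narrowest spread of ratios over all features (SD 0.75, against 0.91 to 1.20 on the others).

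For 16 members several probes passed the filter, and in 14 of them the probes had the same sign. The exceptions were Trim25 and Parp9 (-0.10 and 0.34). Sizes differed more than signs. The Xaf1 probe used in the test had a mean ratio of 2.78, and the dimmer one, at a position further along the gene and with levels of 94.4 to 186 in both channels, had 0.19. The Oas1a probes had ratios of 2.96 and 1.54, the Isg15 probes 3.86 and 2.93, and the Ifih1 probes 2.12 and 1.86. Zbp1 and Ddx58 had larger ratios on the dimmer probe, at 1.42 against 0.30 for Zbp1 and 1.38 against 0.70 for Ddx58.

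**Figure D3:**
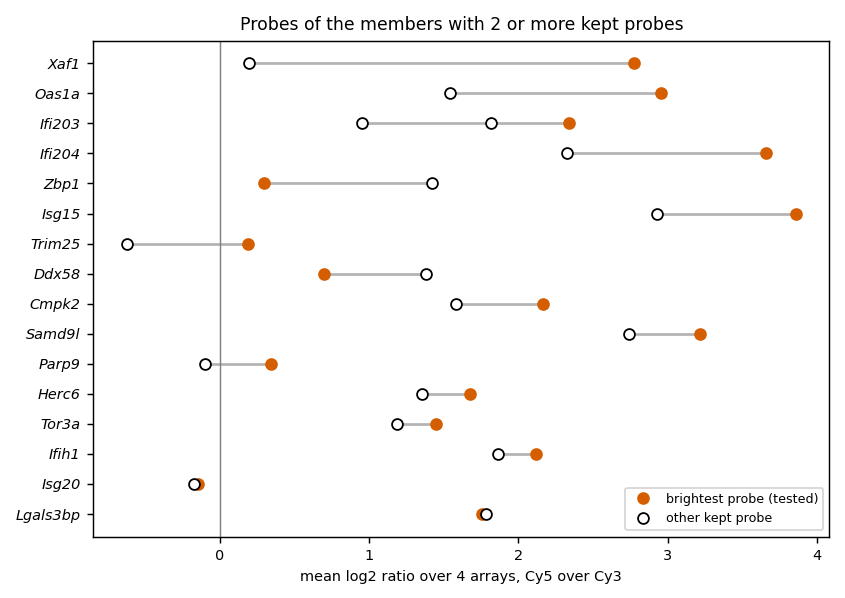
Mean log2 ratio of Cy5 over Cy3 over 4 arrays of each kept probe of the 16 members with more than 1 such probe, with the brightest probe filled. Probes of a gene share the sign for 14 genes, and Xaf1 has the widest gap, 2.78 against 0.19.

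Other genes of the interferon pathway and markers of cell types were read from lists. Over all these lists 23 genes were called in either direction, where 1.67% of all features were, and 4, 0, 11 and 3 were called without array 1, 2, 3 and 4 in turn. The 23 include 4 odontoblast markers, 4 osteoblast markers and the member Herc6. The 4 calls without array 1 were 3 odontoblast markers and 1 osteoblast marker, and the 3 calls without array 4 were odontoblast markers. Of 17 measured ligands and receptors, 0 were called in either direction by limma (1 at an unadjusted p under 0.05, in Cy3), and their median ratio was -0.41. The receptor chain Ifnar1 had a ratio of 0.42 ± 0.25 (SE, adjusted p = 0.421) and Ifnar2 had 0.20 ± 0.20 (adjusted p = 0.629). Interferon alpha genes are close copies, and their probes may share signal and are not read here as single genes. Among 12 genes of signal transduction 0 were called (at an unadjusted p under 0.05, 3 in Cy5 and 1 in Cy3) and the median was 0.44. Stat3 had a ratio of 0.94 and the phosphatase Ptpn2 -0.34. Irf9, the DNA-binding partner of Stat2, was named after its values were seen and had ratios of 1.98, 1.66, 0.32 and 0.16 on arrays 1 to 4.

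Of the 8 interferon regulatory factors, 1 was called, and the median ratio was 0.26. Irf7, the factor that amplifies interferon production and is itself induced by interferon, measured 9455, 7456, 8764 and 6781 in Cy5, against 405, 1816, 930.1 and 641 in Cy3. It was 9.88-fold higher in Cy5 (log2 ratio 3.31 ± 0.41 SE, adjusted p = 0.0325). Irf3, the factor that starts the response, had a ratio of 0.66 (adjusted p = 0.368) and Irf2 had 0.17 (adjusted p = 0.796). Within arrays the log2 ratio of Irf7 exceeded that of Irf9 by 2.28 ± 1.30 (SD, n = 4, positive on 4 of 4 arrays, exact permutation p = 0.125). The last of the 8 pairs, Ifih1 over Ddx58, had a difference in log2 ratio of 1.42 ± 0.32 (SD, n = 4, positive on 4 of 4 arrays, exact permutation p = 0.125). That difference used the brighter Ddx58 probe (mean ratio 0.70). The other kept Ddx58 probe had a mean of 1.38, nearer to the 2.12 of Ifih1.

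Receptors and adaptors of nucleic acid sensing had 0 calls among 16 genes (1 at an unadjusted p under 0.05, in Cy3) and a median of 0.10. The kinase Tbk1 had a ratio of -0.94 (adjusted p = 0.159) and its adaptor Traf3 -0.38 (adjusted p = 0.649). Of 5 enzymes of ISG15 conjugation, which share Herc6, Usp18 and Trim25 with the members, 1 was called (Herc6). Ube2l6, the conjugating enzyme, had a negative mean of -1.27 ± 0.31, negative on all 4 arrays and not called (adjusted p = 0.128).

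Of 14 MHC class I and antigen processing genes, 6 were called higher in Cy5 and 0 in Cy3, with a median of 1.45, and at an unadjusted p under 0.05 limma gave 9 in Cy5 and 0 in Cy3. None of the 14 was called with the scanner software's ratio or the deposited value table (9 at an unadjusted p under 0.05 in both), and 3 were called with scale normalization. Without array 1, 2 or 4 there were 0 calls (12, 8 and 7 at an unadjusted p under 0.05), and without array 3 there were 2. B2m, the light chain of class I molecules, measured 65115, 71212, 51629 and 61136 in Cy5, against 10611, 9721, 23152 and 9588 in Cy3 (log2 ratio 2.33 ± 0.33 SE, adjusted p = 0.0435). The peptide transporter Tap1 had a ratio of 1.88 (adjusted p = 0.0305), H2-D1 1.67 (0.0415) and H2-T23 1.59 (0.0369). H2-Q4 (0.44) and the proteasome activator Psme2 (0.49) were not called. Class I heavy chains are close copies, and their probes may share signal.

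The interferon-induced GTPases had 1 call among 12 (Igtp, 2.34 ± 0.31 SE, adjusted p = 0.0368, well above background in Cy3 on 1 array) and a median of 1.68. At an unadjusted p under 0.05 limma gave 6 of them in Cy5 and 0 in Cy3, and 5 were positive on all 4 arrays. Gvin1 (2.36, adjusted p = 0.0599) and Gbp7 (2.39, adjusted p = 0.106), named after their values were seen, were among these 5 and not called. The chemokines had 0 calls among 6 by limma (1 at an unadjusted p under 0.05, in Cy5) and a median of 0.97. The GTPase median was 0.02 on array 1, against 1.87, 1.97 and 1.54 on arrays 2 to 4. The chemokine medians were -0.86, 3.35, 4.06 and 0.09 on arrays 1 to 4, low on arrays 1 and 4 and high on arrays 2 and 3. Named after their values were seen, Cxcl10 had ratios of -4.31, 3.75, 4.30 and -0.30 and Gbp2 -2.32, 5.82, 2.59 and 3.15 on arrays 1 to 4. The members were above 0 on array 1 in 31 of 34 cases. Irgm1 (1.03 ± 0.18, adjusted p = 0.0666) and Iigp1 (0.11) were bright GTPases that were not called, and Ccl2 (0.87) and Cxcl11 (0.17) were such chemokines.

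**Figure D4:**
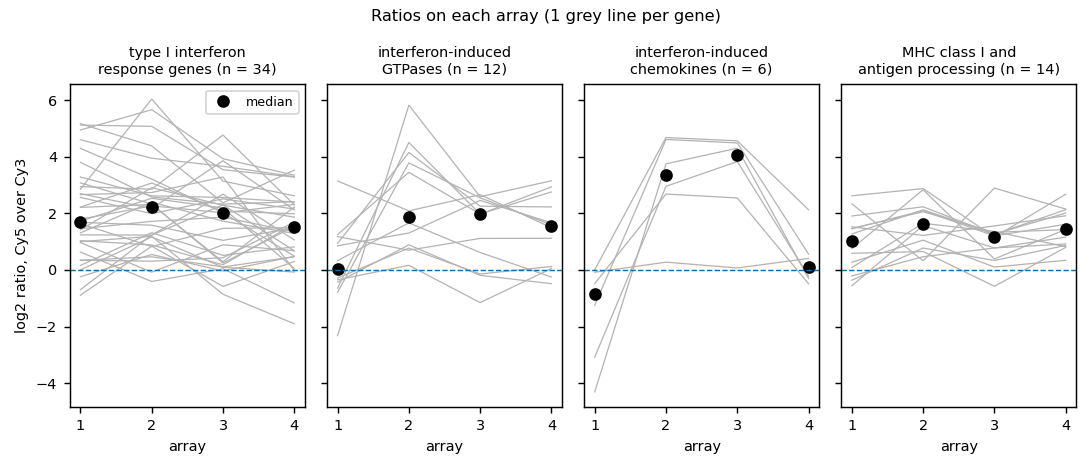
Log2 ratio of Cy5 over Cy3 of each gene on arrays 1 to 4 (1 grey line per gene, with the median as a black point; arrays have no order) for the 34 measured members, 12 GTPases, 6 chemokines and 14 MHC class I genes. The members' medians lie between 1.51 and 2.22, while the chemokines' medians lie between -0.86 and 4.06.

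Some markers of macrophages and other leukocytes were also higher in Cy5. Of 18 measured, 5 were called higher in Cy5 and 0 in Cy3, and their median ratio was 1.81. At an unadjusted p under 0.05 limma gave 11 in Cy5 and 1 in Cy3. Ratios were positive on all 4 arrays for 12 of the 18 and negative on all 4 for 1 (Csf1r), and the others took either sign. The summed level of the list ranged from 116490 to 214700 in Cy5 and from 81970 to 112690 in Cy3. The uncalled Itgam alone measured 67835 to 85159 in Cy5 and 52795 to 76092 in Cy3, so the sum says little of the other markers. Each of the 18 lay well above background on at least 1 array in both channels, and C1qc, the 19th marker of the list, did not pass the filter on dim probes and was not measured. Lyz2, the lysozyme of phagocytes, measured 12465, 12872, 52479 and 17394 in Cy5, against 336, 991, 959.8 and 2104 in Cy3 (log2 ratio 4.43 ± 0.50 SE, adjusted p = 0.0264). The leukocyte membrane protein Laptm5 (2.91, adjusted p = 0.018), the protease Ctss (2.59, 0.0323) and the tetraspanin Cd53 (2.42, 0.0499) were called too, whereas Csf1r (-0.41) and Itgam (0.18) were not. Ctss and Cd53, like the called mannose receptor Mrc1, lay well above background in Cy3 on 1 array each, and the list had 2 calls among 13 where both channels had to be well above background on all arrays. It had 3 calls with no filter on dim probes, 8 with median centring, and 0 without any one of the 4 arrays (11 in Cy5 at an unadjusted p under 0.05 in each case). The other kept Csf1r probes had mean ratios of -2.84 and -1.87, negative on all 4 arrays, and with the mean of all probes of a gene the list had 5 calls in Cy5 and 1 in Cy3.

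Markers of other cell types gave 1 call in all. At an unadjusted p under 0.05 limma gave 1 neutrophil marker in each channel, 2 lymphocyte markers in Cy3, and 0 erythroid and 0 endothelial markers. Among dendritic cell markers it gave 4 in Cy5, the member Bst2 among them, and 0 in Cy3. Neutrophil markers had 0 calls among 7 and a median of -0.28, with summed levels of 53942 to 69655 in Cy5 and 63425 to 80500 in Cy3. Most of that sum was the probe of Csf3r, at 50882 to 62882 in Cy5 and 61922 to 77413 in Cy3. Summed levels add probes of unlike brightness and do not measure how much of a cell type is present. Lymphocyte markers had 0 among 8 and a median of -0.30 (2024 to 2329 in Cy5 and 2617 to 8757 in Cy3), erythroid markers 0 among 4 and -0.16 (1051 to 1478 in Cy5 and 1033 to 1699.9 in Cy3), and endothelial markers 0 among 8 and 0.11 (5878 to 6579 in Cy5 and 5641 to 9973 in Cy3). Dendritic cell markers, which include the member Bst2, had a median of 0.05 over 9. Their summed levels, mostly from Siglech and Bst2, were 62594 to 81943 in Cy5 and 46023 to 70557 in Cy3. Of these 9, H2-Aa, a class II chain, was called. In Cy3 its probe lay well above background on 0 arrays, and it was at least 6.91-fold higher in Cy5 (geometric mean 715 in Cy5 and 103 in Cy3, adjusted p = 0.0171). Named after their values were seen, the other class II chains of the list were not called: H2-Ab1 had a ratio of -1.45, negative on 3 arrays (geometric mean 571 in Cy5 and 1558 in Cy3, adjusted p = 0.339), and H2-Eb1 had -0.40, negative on all 4 (adjusted p = 0.29). Siglech, which marks plasmacytoid dendritic cells, the cells known for making much type I interferon, had a ratio of -0.28 (adjusted p = 0.46).

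**Figure D5:**
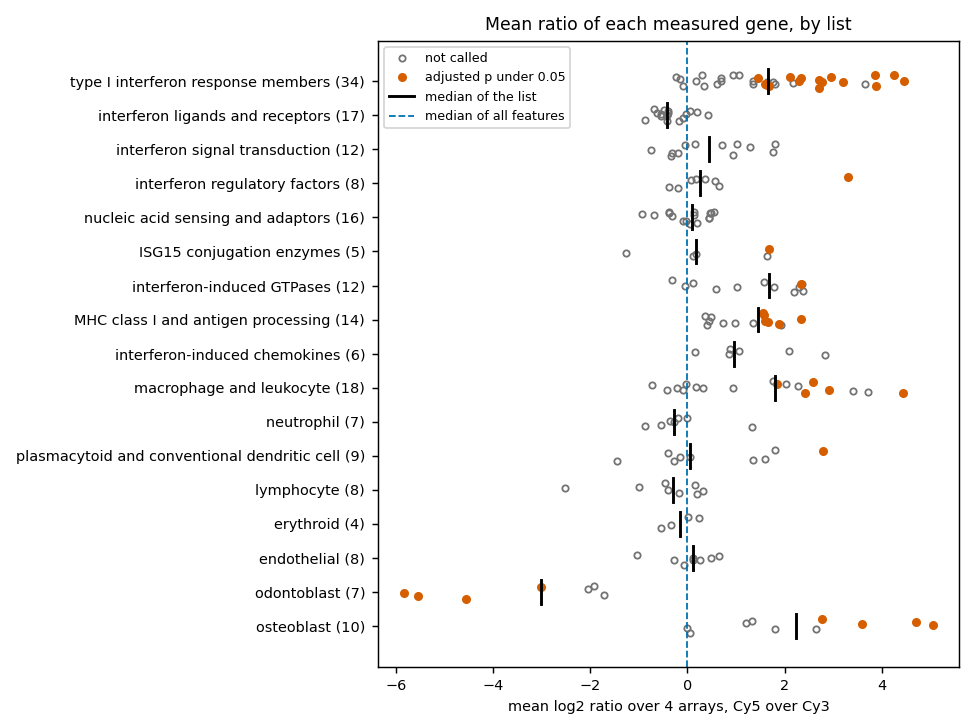
Mean log2 ratio of Cy5 over Cy3 over 4 arrays of each measured gene, by list (number measured in brackets), with called genes filled, the list's median as a bar and the median of all features as a dashed line. The members' median of 1.66 lies near those of the GTPases, the MHC class I genes and the macrophage and leukocyte markers, and the ligands and receptors have a median of -0.41.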

How the data were processed

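The cDNA input was 250 ng per RNA and dye, per the labels. The authors' deposited scanner files, made with Agilent Feature Extraction 10.7.3.1 per the file headers, hold each spot's mean and local background intensity in both channels, not normalised. They also hold the software's log10 ratio of Cy5 over Cy3, background-subtracted and dye-normalised. A deposited value table in log10 held the same ratios within 0.001 (log2) for 99.4% to 99.5% of probes per array. It ran as Cy5 over Cy3, column medians were 0, and centring beyond the software's was not seen. All 4 arrays lay on 1 slide with 1 scan time, so no batch could be tested. Later steps by the authors are not given in the sources used here.

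Background was corrected with normexp (offset 50) and arrays were normalised by loess in limma 3.58.1 under R 4.3.3, with weight 0 for control spots, which were then removed. The 949 spot values marked as outliers were set to missing, and 0 spots were saturated. The filter kept 44239 of 55681 probes, those well above background on 3 or more arrays in 1 channel, and the brightest kept probe stood for a gene. Ratios of 37365 features (19720 genes) were tested against 0 with lmFit and eBayes (two-sided), p-values were adjusted by Benjamini-Hochberg over the 37365, and genes were called at an adjusted p under 0.05. Levels are intensities after loess and Aquantile normalisation, on a linear scale, and are compared only within a probe. A summed level adds the probes of a list, and lists are not compared by it. Bounds set the bright channel's mean against the higher, on each array, of the dim value and the lowest signal that the scanner software called well above background. Tables were handled in Python 3.11.15 with pandas 2.3.3. The fit was tested on simulated data. Per the file headers, probe positions are on mm9, and promoters are RefSeq's on GRCm38.p6.

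The members and lists were chosen with earlier results of these data known. The rule for named genes took all called members, the 6 brightest uncalled members, members of mixed sign, and per list up to 4 called and 2 bright uncalled genes. Ifi204, Cmpk2, Rsad2 and the remaining members, and the list genes said to be so, were named after their values were seen. Alternatives varied normalisation, background correction, source of the ratio, filter, probe choice, variance model and arrays. One list gene is not reported here.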

Additional observations from a re-analysis of the deposited data

Results flagged for a closer look

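In 7 of 84 genes examined, 1 array stood so far from the nearest other array that the gap, as a share of the range over the 4 arrays, passed Dixon's critical value. Chance marks about 1 in 20 such groups. Of the 7 genes, 5 were interferon response members, which made up 34 of the 84 examined. The ratio of Ifi204 was 6.03 on array 2, far above the other arrays, and that of Xaf1 was 3.80 on array 1. The ratio of Lgals3bp was low on array 3, at 0.29, and that of the MHC class I light chain B2m was low on the same array, at 1.16. The translation-blocking kinase Eif2ak2 had 1.69 on array 4 and the nucleic acid sensor Zbp1 had 1.17 on array 2, both above the other arrays. The GTPase Irgm1 had its low value, 0.70, on array 2. The causes of these values were not tested.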

How the results depend on the processing

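With all 4 arrays, the number of members called was 15 and ran from 9 to 21 over the alternatives, and every such call was higher in Cy5. It was 9 with the scanner software's log ratio and 9 with the deposited value table, where the median ratio of the members was 2.19 in both. Median centring gave 21 members and 38 pathway and marker genes called, against 23, and left the median of all features at 0.16. It put 84.0% of all calls in Cy5 (2091 of Cy5 and 397 of Cy3), against 61.0% with loess (380 and 243). The software's ratio and the value table gave 14 such list genes. Leaving out each array in turn gave 0 to 9 members and 0 to 11 list genes, and the cause was not tested beyond the smaller number of arrays. The longer motif was found in 9 promoters in place of 14. Ifi44, Ifit1, Ifit3, Isg15, Oasl2, Mx2 and Ifi203 were called in every setting that kept all 4 arrays and measured them.

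Reversed signs were seen in genes that were not called. With the software's ratio and the value table they were Trim25 (-0.10) and Cxcl11 (-0.0397). With the mean of all probes they were Trim25 (-0.22), Ptpn2 (0.08), Psme2 (-0.28), Cxcl11 (-0.35) and Vwf (0.16). With median centring they were Oas2 (0.0873), Isg20 (0.39), Ptpn2 (0.12), Csf1r (0.23), Csf3r (0.66) and Siglech (0.56). Leaving out each array gave ranges across 0 for Oas2 (-0.39 to 0.18), Isg20 (-0.59 to 0.44), Oas3 (-0.51 to 0.0876), Irf2 (-0.17 to 0.37), Traf3 (-0.81 to 0.0039), Iigp1 (-0.10 to 0.25) and Ccl2 (-0.12 to 2.19). No paired analysis was possible because the arrays form 1 group, and each array's ratio is already the paired difference. Dim probes limit the reading of 8 members, which were not well above background on every array in both channels: Stat2, Cmpk2 and Parp14 (2 arrays in Cy3), Oasl2, Herc6, Usp18 and Oasl1 (3 in Cy3) and Oas3 (3 in both).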

Other observations

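A probe filed under the name Ifi27l1 carries an accession that RefSeq now assigns to Ifi27, a mitochondrial interferon-induced gene that is among the 38 listed symbols. It lay outside the choice by file name and is given here as values. Its normalised intensity was 28887, 25997, 29647 and 27123 in Cy5 of arrays 1 to 4, against 2222, 3592, 9116 and 5706 in Cy3. The log2 ratio was positive on all 4 arrays, at 3.70, 2.86, 1.70 and 2.25.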
